A study of Homo sapiens with 21 samples.

Results

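The 10 genes described here encode ligands, receptors and intracellular transducers of transforming growth factor beta (TGF-beta) signalling: TGFB1, TGFB2, TGFB3, INHBA, TGFBR1, TGFBR2, TGFBR3, SMAD3, SMAD4 and SMAD7. They were chosen by symbol from a table of 53515 Ensembl genes, and all 10 were found. Their mRNA was measured by RNA sequencing in cultured human cancer cell lines, in 7 parental cell lines that were sensitive to a drug and in 10 derived cell lines that were resistant to it. The liver cell line HepG2 gave rise to HepG2S1 and HepG2S3 under sorafenib, and the pancreatic PancVB (Panc03.27) to PancB1Q and PancB1V under 5-fluorouracil. The lung cell lines were HCC4006P1 with the erlotinib-resistant HCC4006ER, HCC4006P2 with the gefitinib-resistant HCC4006GR, and HCC827P with the gefitinib-resistant HCC827GR. The study gives HCC4006P1 and HCC4006P2 the same cell line identifier. They are counted below as 2 parental cell lines but are not independent in origin. The ovarian cell lines were UWB1.289, with U10 and U100 selected under olaparib, and IGROV-1, with IGROV-1/CDDP selected under cisplatin. Of the 17 cell lines, 13 were sequenced as 1 library, and 2 libraries were made from HepG2, HepG2S3, HCC4006P1 and HCC4006ER, 21 in all. The study classes 7 of the 10 resistant cell lines as full epithelial-to-mesenchymal transition (EMT) and U10, U100 and IGROV-1/CDDP as partial. These classes rest in part on expression in the same cell lines, so they are not independent of the values below. The resistant cell lines came from months of exposure to rising drug doses, so each is 1 selected population, and the labels do not say whether drug was present at harvest.

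TGF-beta ligands are secreted in a latent complex that is opened outside the cell. An active ligand brings together the type II receptor TGFBR2 and the type I receptor TGFBR1, which is a kinase, while the co-receptor TGFBR3 (betaglycan) presents ligand, TGFB2 in particular. TGFBR1 phosphorylates SMAD2 and SMAD3, which join SMAD4 and enter the nucleus to regulate target genes. SMAD7 is a target gene of the pathway and blocks it at the type I receptor. INHBA encodes the subunit of activin A, which uses its own receptors but the same SMAD2 and SMAD3. TGF-beta is a well-known inducer of EMT in epithelial cells, and it restrains the growth of many of them.

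Total gene counts ran from 9851195 to 36639473 per library (median 19498932). Levels are given as CPM, the count of a gene per 1000000 counts of its library. A minimum of 3 counts was required for detection, which is 0.0819 CPM at the greatest depth and 0.305 CPM at the least. Replicate 1 of HCC4006P1 held no usable counts for the end of the gene order, from within chromosome 7 on. There, 1679 genes had 50 counts or more in replicate 2, and 0 of them had any in replicate 1. INHBA and TGFBR1 lie in it, and in that library they were taken as not measured, so that HCC4006P1 has 1 value for each of them. The marker genes of the tissues were not kept in all cell lines. The summed level of 5 hepatocyte genes was 16655 CPM in HepG2, 0.812 CPM in HepG2S1 and 17.6 CPM in HepG2S3, and ALB, AFP, APOA1 and TTR were at 0 in HepG2S1. The summed level of 4 lung epithelial genes was 296 CPM in HCC4006P2 and 101 CPM in HCC827P, but 0.386 CPM in HCC4006P1 and 0.535 CPM in HCC4006ER. The summed level of 5 fibroblast genes was 0.894 CPM in HCC4006P1 and 1526 CPM in HCC4006ER, mainly COL1A2 at 1332 CPM. COL1A2 was not measured in replicate 1 of HCC4006P1 either, so its parental value of 0.154 CPM is from replicate 2 alone. Of 4 pancreatic duct genes, KRT19, a keratin of many epithelia, stood at 677 CPM in PancVB, 82.0 CPM in PancB1Q and 28.6 CPM in PancB1V, ONECUT2 at 3.36, 3.68 and 7.17 CPM, and PDX1 and CFTR at no more than 0.201 CPM. The methods name a 3′ end kit besides a stranded kit and do not say which library used which. The labels name a stranded kit, and values per kilobase may be off if the 3′ end kit was used. In bulk libraries, fewer cells of a type and less RNA per cell cannot be told apart.

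Comparisons were made in 3 ways. In each of the 10 pairs, the change was the difference of log2(CPM + 1), resistant minus parental, where low genes appear to change less than they do, and a change of at least 1 in size was counted among genes with a mean of at least 1 CPM in the pair. In 8 of these pairs at least 1 cell line had 1 library, so the changes have no test, and their 95% intervals (Wilson intervals of both counts, combined) cover counting error only. HepG2S3 against HepG2, and HCC4006ER against HCC4006P1, were compared on 2 libraries each by the quasi-likelihood test of edgeR, scaled by TMM, and adjusted p-values are Benjamini-Hochberg values over all genes tested, called under 0.05. The labels do not say whether replicate libraries came from separate cultures, so these p-values measure the spread between libraries, which may be technical. A further fit of this kind set 7 resistant against 7 parental profiles and blocked on the parental cell line. It, like the counts over 7 parental cell lines below, took HCC4006P1 and HCC4006P2 as separate units, though they share an identifier.

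In HepG2S3, 8 of the 10 genes were called against HepG2, 4 higher and 4 lower, where 63.5% of all genes tested were called, 31.4% higher and 32.1% lower. Most genes tested were called there, so the count of members is no result about them. INHBA and TGFB2, among the 4 higher, reached the minimum of the low-count filter in both HepG2S3 libraries but in 0 and 1 HepG2 libraries, so they entered the test through the group where they were high. With library totals in place of TMM scaling, the split over all genes became 6761 higher and 4305 lower, against 5308 and 5436. In HCC4006ER, 5 of the 8 genes that could be tested in 2 libraries on each side were called against HCC4006P1, 3 higher and 2 lower, where 47.4% of all genes tested were called, 23.2% higher and 24.2% lower. INHBA and TGFBR1, with 1 parental library, were both called higher in a separate fit that called 61.9% of all genes, 30.8% higher and 31.2% lower (37.3% with DESeq2). Over the 7 parental cell lines, edgeR called 0 of 19829 genes (0%) and 0 of the 10, with 920 genes at an unadjusted p under 0.05, and DESeq2 called 97 genes (0.519%), of which INHBA was the only one of the 10.

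The pairs differed in how many of the 10 genes had a change of at least 1 in size. In HepG2S1 these were 3 higher and 3 lower of 9 genes that passed the filter, beside 25.8% and 18.3% of all genes. HepG2S3, which shares the HepG2 libraries, also gave 3 and 3 of 9, beside 27.5% and 17.4%. In both, TGFB2, TGFB3 and SMAD4 were higher and TGFBR2, TGFBR3 and SMAD3 were lower. SMAD4 passed at 1.14 in HepG2S1 and 1.28 in HepG2S3, where the median of all genes was 0.23 and 0.28. Its place in these counts therefore depends on scaling. PancB1Q had 1 higher and 0 lower of 10 (6.14% and 9.41% of all genes), and PancB1V, with the same parental library, 2 higher and 1 lower of 10 (8.72% and 7.24%). HCC4006ER had 3 higher and 0 lower of 10 (13.2% and 10.1%). The gefitinib-resistant HCC4006GR had 2 higher and 0 lower of 10 (7.67% and 7.48%), and HCC827GR 3 higher and 0 lower of 10 (10.5% and 7.79%). INHBA was among the higher genes in all of these pairs from PancB1Q on. U10 had 3 higher and 0 lower of 10 (6.36% and 5.01%), U100 1 higher and 0 lower of 9 (6.37% and 1.76%), and IGROV-1/CDDP 0 higher and 2 lower of 9 (5.50% and 7.19%). INHBA did not pass the filter in HepG2S1, HepG2S3 and IGROV-1/CDDP, and TGFB3 did not in U100.

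**Figure D1:**
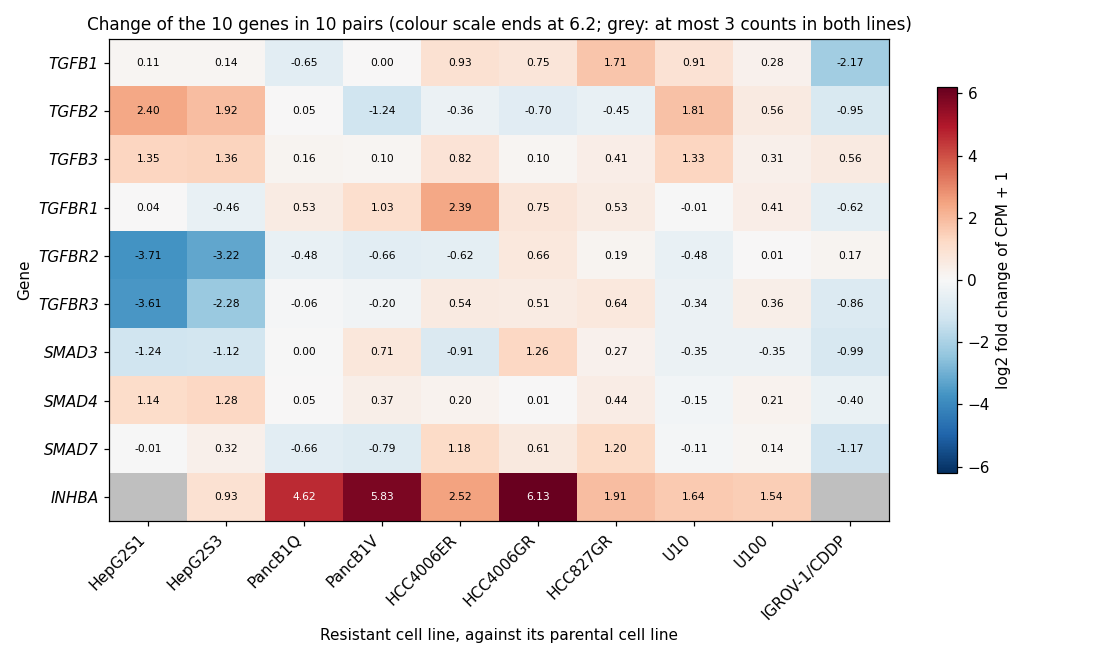
Heat map of the log2 fold change of CPM + 1, resistant minus parental, for the 10 genes (rows) in the 10 pairs (columns), with red for higher and blue for lower in the resistant cell line and grey where both cell lines had at most 3 counts in each library. INHBA was 6.13 higher in HCC4006GR and 5.83 higher in PancB1V, while TGFBR2 and TGFBR3 were lowest in HepG2S1, at -3.71 and -3.61.

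INHBA, on chromosome 7 from 41706766 to 41745432 on the minus strand (GRCh37), was the member with the largest differences. In the pancreatic cell lines it stood at 6.72 CPM (146 counts) in PancVB, 189 CPM in PancB1Q and 437 CPM in PancB1V. The resistant levels were 28.2-fold (95% counting interval 23.9 to 33.2) and 65.0-fold (55.2 to 76.5) the parental level. Activin A is a secreted dimer of this subunit. In HCC4006GR it was at 151 CPM, against 1.18 CPM (16 counts) in HCC4006P2, a ratio of 129 (79.1 to 210). HCC827GR had 17.2 CPM and HCC827P 3.86 CPM, a ratio of 4.46 (3.41 to 5.83). Both gefitinib-resistant cell lines were thus above their parental cell lines, at levels that differed from each other.

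The ovarian cell line UWB1.289 had the highest parental INHBA level, 88.7 CPM, and its olaparib-resistant derivatives were higher still, with 278 CPM in U10 and 259 CPM in U100. The ratios were 3.14 (2.92 to 3.37) and 2.92 (2.73 to 3.14). IGROV-1 and IGROV-1/CDDP had 0 counts each, which allows up to 0.109 and 0.119 CPM, so no change can be given there. HepG2 had 2 and 0 counts and HepG2S1 had 3 counts, at or under the number taken as detected. HepG2S3 had 27 and 33 counts, 0.844 and 1.08 CPM, a ratio of 35.2 (9.16 to 128). All of these liver values are low next to the pancreatic and ovarian ones.

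The edgeR estimate for HepG2S3 against HepG2 was 4.63 (SE 0.72) and became 7.86 without HepG2 replicate 1. It is given as a value only, since INHBA entered that test through the HepG2S3 libraries. HCC4006P1 replicate 2 had 0.821 CPM (16 counts) and HCC4006ER had 9.11 and 9.76 CPM, and INHBA rose by 3.33 (SE 0.30, edgeR adjusted p = 8.46e-27). That fit takes the lone parental library to vary as little as the HCC4006ER libraries do, and with DESeq2 the adjusted p was 7.31e-09. With the stretch of replicate 1 taken as 0 counts, INHBA was not called (4.36, edgeR adjusted p = 0.211). Over the 7 parental cell lines the estimate was 3.91 (SE 0.82), with an unadjusted p of 0.00160 and an edgeR adjusted p of 0.774. Higher values in the resistant cells stood in 6 of 7 parental cell lines, HepG2 included, with the mean of their derivatives taken and HCC4006P1 and HCC4006P2 counted apart. DESeq2 gave 3.76 with an adjusted p of 1.03e-04.

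The mean log2 fold change of INHBA over the 7 parental cell lines was 2.57 (SD 2.29). Among 15392 genes with a mean of at least 1 CPM, 9, INHBA included, had a mean at least as high (0.0585%). Its change was at least 1 in 5 of 7 parental cell lines, which held for 60 of these genes (0.390%). These shares describe the 7 cell lines, and INHBA was picked with results of these data known. INHBA shares exon sequence with the antisense gene INHBA-AS1, which had at most 58 counts in any library, against 5412 and 10850 counts of INHBA in PancB1Q and PancB1V. The summed fibroblast genes were also higher in HCC4006GR (106 CPM) than in HCC4006P2 (5.14 CPM), mainly COL1A2 at 100 CPM, and in U10 (170 CPM) than in UWB1.289 (3.79 CPM), where THY1 made up 165 CPM and COL3A1 and LUM were at 0. Their part in the INHBA values was not tested. In the pancreatic cell lines, with the highest INHBA level, they summed to 0.598 CPM in PancVB, 0.315 CPM in PancB1Q and 0.604 CPM in PancB1V.

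**Figure D2:**
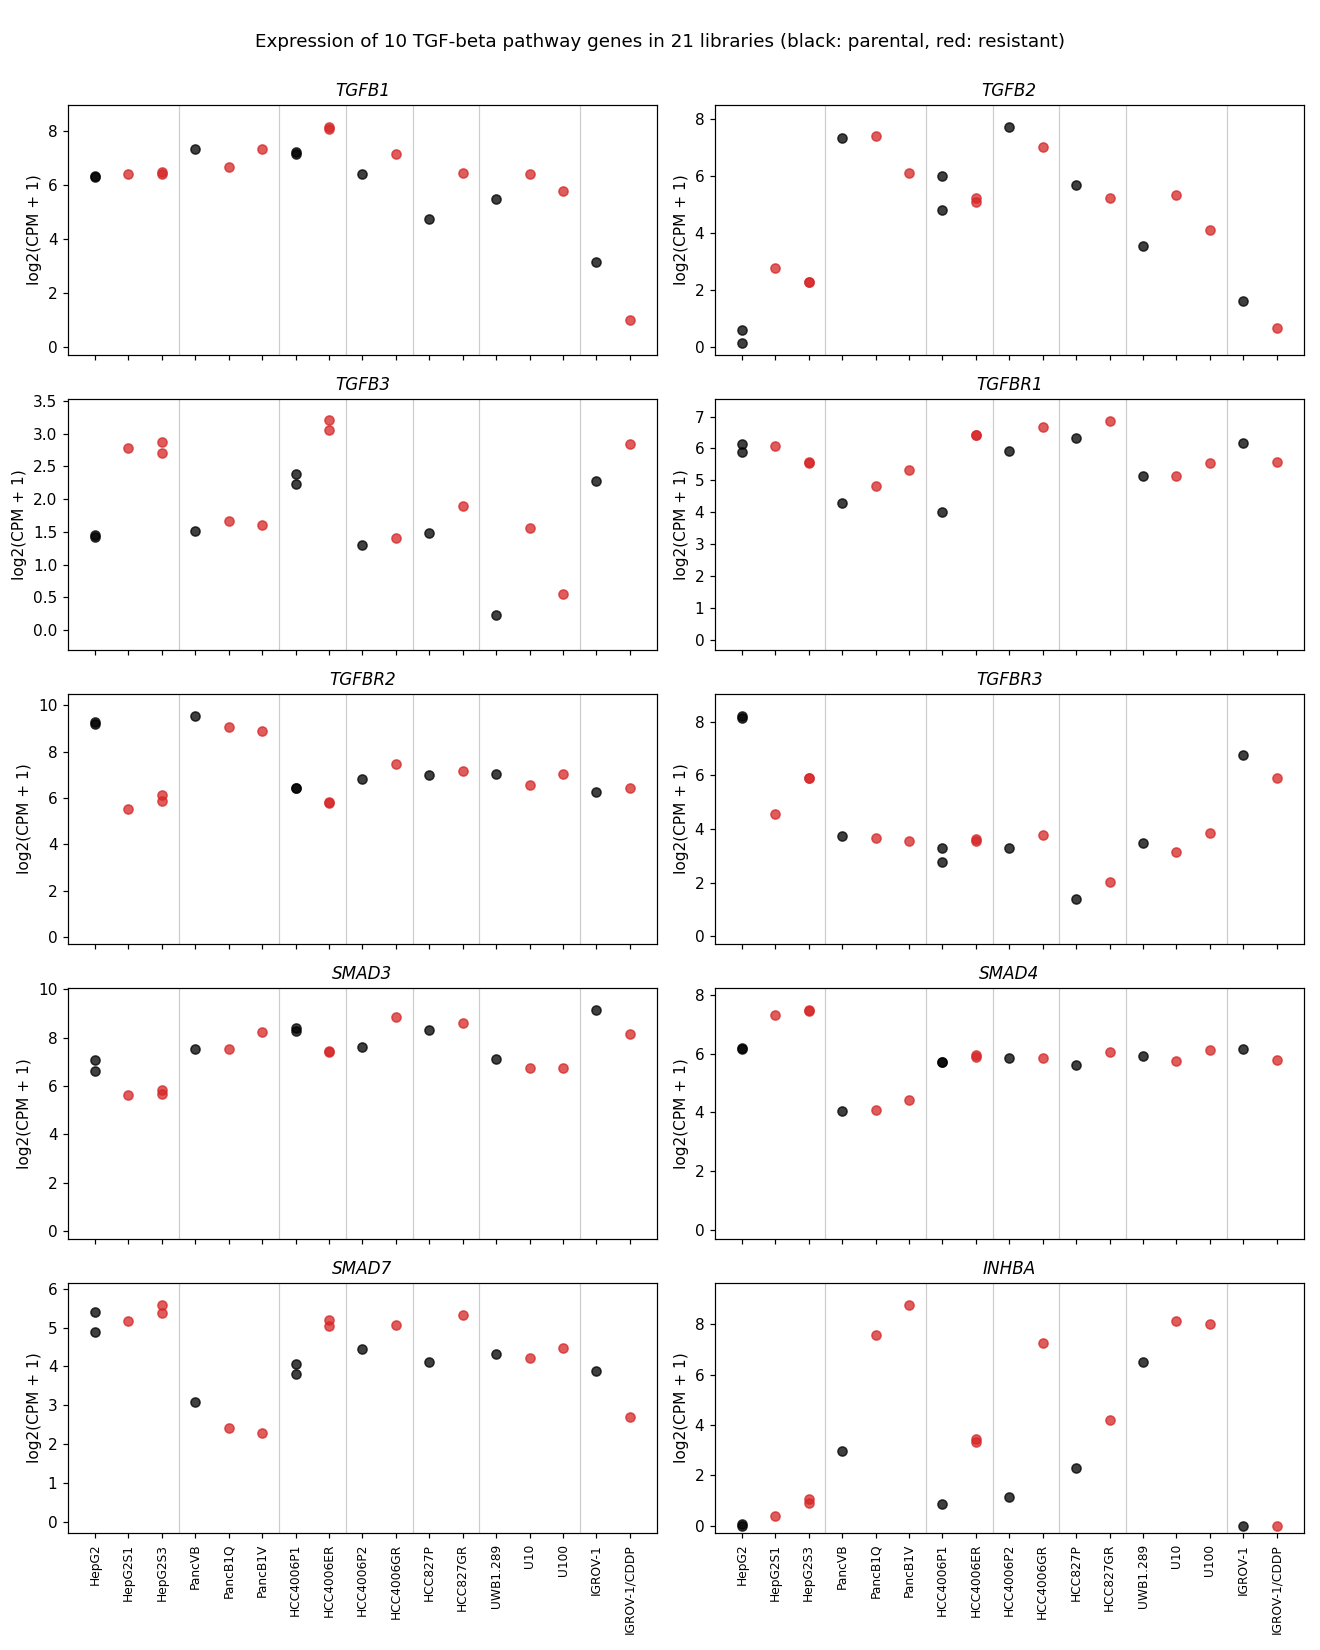
Level of each of the 10 genes as log2(CPM + 1), 1 point per library, in the 17 cell lines (black: parental, red: resistant), with grey lines between the families of 1 parental cell line and axes that differ between panels. INHBA runs from 0 CPM in the IGROV-1 cell lines to 437 CPM in PancB1V, and SMAD4 is lowest in the pancreatic cell lines.

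The promoter sequences of INHBA and SMAD7 are shown because INHBA was the ligand with the largest differences and SMAD7 is an inhibitor that is itself a known SMAD target. All 10 genes matched the RefSeq table, and these are the 250 bases before the start site (GRCh38.p14), 5′ to 3′ on the minus strand, with capitals for CAGAC or its reverse complement GTCTG, the short element that SMAD3 and SMAD4 bind. The windows are chr7:41703091-41703340 for INHBA and chr18:48950966-48951215 for SMAD7.
INHBA: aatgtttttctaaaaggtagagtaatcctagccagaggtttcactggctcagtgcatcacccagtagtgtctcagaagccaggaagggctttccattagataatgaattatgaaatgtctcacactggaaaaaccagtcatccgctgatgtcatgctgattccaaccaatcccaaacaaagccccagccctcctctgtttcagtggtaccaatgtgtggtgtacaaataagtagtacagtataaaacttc
SMAD7: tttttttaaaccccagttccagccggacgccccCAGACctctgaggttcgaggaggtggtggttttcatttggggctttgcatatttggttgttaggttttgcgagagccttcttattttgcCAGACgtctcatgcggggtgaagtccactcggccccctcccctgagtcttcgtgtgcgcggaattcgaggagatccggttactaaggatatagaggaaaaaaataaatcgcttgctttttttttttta
The INHBA window held 0 matches and the SMAD7 window 2, and of 35116 promoter windows of the same length 38.0% held at least 1 match and 8.84% at least 2. The INHBA window had 1 CG dinucleotide and the SMAD7 window 13, where the median over all promoters was 11. A match is a run of letters and does not show binding, and no match speaks only for this window.

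Of the 3 TGF-beta isoforms, TGFB1 (chromosome 19, 41807492 to 41859827, minus strand, GRCh37) had the highest level per kilobase of transcript in 15 of the 17 cell lines. Counted with INHBA, it was the highest of the 4 ligands in 12. In HCC827P its lead over TGFB2 was small, at 9.30 against 8.52 CPM per kb. TGFB1 reached 286 and 274 CPM in the 2 HCC4006ER libraries, against 143 and 151 CPM in HCC4006P1, and the groups did not overlap. This rise was 0.82 on the log2 scale (SE 0.12, edgeR adjusted p = 0.00188). In HCC827GR TGFB1 stood at 86.8 CPM and in HCC827P at 25.8 CPM, a ratio of 3.36 (3.02 to 3.74). HCC4006GR had 142 CPM against 83.8 CPM in HCC4006P2, and U10 83.9 CPM against 44.1 CPM in UWB1.289. All 3 pairs of the EGFR inhibitors erlotinib and gefitinib thus had more TGFB1 mRNA in the resistant cell line.

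The cisplatin-resistant pair had the opposite difference. IGROV-1 had 7.93 CPM of TGFB1 (218 counts) and IGROV-1/CDDP 0.989 CPM (25 counts), the lowest level of all lines, with the parental level 8.02 times the resistant one. In the liver the levels lay close together, with 78.4 and 79.4 CPM in HepG2, 85.3 CPM in HepG2S1 and 83.7 and 90.1 CPM in HepG2S3. The edgeR estimate for HepG2S3 was -0.18 (SE 0.12, edgeR adjusted p = 0.253), and with library totals only it was 0.14, so the direction depends on the scaling. In HepG2S1 the change was 0.11 with library totals and -0.33 with TMM-scaled totals. TGFB1 shares exon sequence with HNRNPUL1 on the opposite strand, which had up to 24537 counts in a library, and the strand setting of the counting is not given, so reads of the pair may be mixed.

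TGFB2 (chromosome 1, 218518678 to 218617961, plus strand) spanned the widest range among the genes with counts in every library, from 0.0819 and 0.488 CPM in HepG2 to 209 CPM in HCC4006P2. It was at 5.79 CPM in HepG2S1 and at 3.84 and 3.85 CPM in HepG2S3. The edgeR estimate in HepG2S3 was 3.44 (SE 0.64), and it was 2.66 without HepG2 replicate 1 (3 counts) and 5.17 without replicate 2 (17 counts). As for INHBA it is given as a value only. U10 had 39.3 CPM against 10.5 CPM in UWB1.289, a ratio of 3.74 (3.06 to 4.58), while U100 had 15.9 CPM. Some resistant cell lines had less TGFB2 than their parental cell lines. PancB1V had 67.3 CPM against 160 CPM in PancVB, while PancB1Q had 166 CPM. HCC4006GR had 128 CPM, under the 209 CPM of HCC4006P2, and in HCC827GR it was at 36.4 CPM, also under the level of HCC827P.

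The HCC4006P1 libraries disagreed on TGFB2, with 62.0 CPM in replicate 1 and 26.5 CPM in replicate 2, on either side of the 32.8 and 35.8 CPM of HCC4006ER. The estimate was -0.46 (SE 0.34, edgeR adjusted p = 0.300), and without replicate 1 of HCC4006P1 it was 0.21. No direction can therefore be given for TGFB2 in HCC4006ER. The overlapping antisense gene TGFB2-AS1 had at most 96 counts in any library.

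TGFB3 (chromosome 14, 76424440 to 76449354, minus strand) had a median of 2.05 CPM over the 17 cell lines and did not exceed 9 CPM in any library. HepG2 had 1.75 and 1.66 CPM, HepG2S3 5.53 and 6.33 CPM, and HepG2S1 5.89 CPM. TGFB3 rose in HepG2S3 by 1.48 (SE 0.24, edgeR adjusted p = 0.00376). HCC4006P1 had 4.19 and 3.69 CPM and HCC4006ER 8.20 and 7.29 CPM, a rise of 0.87 (SE 0.20, edgeR adjusted p = 0.0113). The call in HCC4006ER was lost without either of its libraries, with adjusted p of 0.127 and 0.0586, and the direction held. In the family of UWB1.289 the counts were small, with 2 counts in UWB1.289, 20 in U10 and 6 in U100. The mean change was above 0 in 7 of 7 parental cell lines, as it was for 225 of the 15392 genes (1.46%), and averaged 0.60 (SD 0.44). Only 5 of the 10 pairs were higher beyond counting error. In PancB1Q, PancB1V, HCC4006GR, HCC827GR and U100 the interval included 0. The edgeR estimate over the 7 was 0.92 (SE 0.34) with an unadjusted p of 0.0248 and an adjusted p of 0.994, which does not pass. In IGROV-1/CDDP, with little TGFB1 and TGFB2, TGFB3 was at 6.17 CPM and was the highest ligand per kilobase, at 1.80 CPM per kb.

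TGFBR2 and TGFBR3 had their largest differences in the liver, and TGFBR1 in HCC4006ER. TGFBR2 (chromosome 3, 30648093 to 30735634, plus strand), the type II receptor that binds ligand, had 624 and 581 CPM in HepG2, 70.1 and 57.7 CPM in HepG2S3, and 45.3 CPM in HepG2S1. The 2 HepG2S3 libraries stood far below both HepG2 libraries, and TGFBR2 fell by 3.55 on the log2 scale (SE 0.17, edgeR adjusted p = 8.09e-05). The HepG2 level was 13.3 times that of HepG2S1. The hepatocyte genes were lower in both derivatives as well, as given above, and their part in this difference was not tested.

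TGFBR2 in the other pairs differed less. HCC4006P1 had 86.1 and 84.8 CPM and HCC4006ER 56.2 and 54.7 CPM, a fall of 0.73 on the log2 scale (SE 0.12, edgeR adjusted p = 0.00280). Leaving out either HCC4006ER library gave adjusted p of 0.0524 and 0.0540. PancVB held the highest level of all cell lines, 742 CPM, and PancB1Q and PancB1V had 533 and 468 CPM. UWB1.289 had 130 CPM, U10 93.2 CPM and U100 132 CPM. In the other direction, HCC4006GR had 176 CPM and HCC4006P2 111 CPM, a ratio of 1.59 (1.49 to 1.69). HCC827GR with 143 CPM and HCC827P with 125 CPM, and IGROV-1/CDDP with 86.1 CPM and IGROV-1 with 76.5 CPM, lay closer together. Per kilobase TGFBR2 was the most abundant of the 3 receptors in 14 of the 17 cell lines, and in HepG2S1 and HCC4006ER it was TGFBR1. TGFBR1 and TGFBR2 were close there, at 10.1 and 9.99 CPM per kb in HepG2S1 and 13.0 and 12.2 CPM per kb in HCC4006ER. In IGROV-1 TGFBR3 and TGFBR2 both stood at 16.9 CPM per kb, so these ranks are not firm.

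TGFBR3 (chromosome 1, 92145900 to 92371892, minus strand) was high in HepG2, with 280 and 297 CPM, and in IGROV-1, with 107 CPM, and lay under 14 CPM in all cell lines outside these 2 families. HepG2S3 had 58.2 and 59.0 CPM and HepG2S1 22.7 CPM. TGFBR3 fell in HepG2S3 by 2.61 (SE 0.13, edgeR adjusted p = 8.09e-05). IGROV-1/CDDP had 58.6 CPM, with the IGROV-1 level 1.83 times as high. So in both families with much co-receptor mRNA, the resistant cell lines had less of it. In HCC4006ER TGFBR3 was at 11.2 and 10.8 CPM against 8.73 and 5.80 CPM in HCC4006P1, a change of 0.49 (SE 0.21) that did not pass (edgeR adjusted p = 0.103).

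TGFBR1 (chromosome 9, 101866320 to 101916474, plus strand), the type I kinase, had 84.5 and 83.9 CPM in HCC4006ER against 15.3 CPM in the 1 library of HCC4006P1 that measured it. That parental level was the lowest of all cell lines. The rise was 2.28 (SE 0.14, edgeR adjusted p = 1.10e-55, DESeq2 adjusted p = 8.96e-32), with the same assumption on the lone library as for INHBA. With the stretch taken as 0 counts it was not called (3.29, edgeR adjusted p = 0.498). PancB1V had 39.3 CPM and PancB1Q 27.4 CPM against 18.7 CPM in PancVB, ratios of 2.10 (1.87 to 2.36) and 1.47 (1.30 to 1.65). HCC4006GR had 102 CPM against 60.0 CPM, and HCC827GR 114 CPM, the highest level, against 79.3 CPM. In HepG2S3 TGFBR1 was at 46.5 and 46.0 CPM against 58.7 and 69.8 CPM in HepG2, a fall of 0.79 (SE 0.14, edgeR adjusted p = 0.00557). This call was lost without either HepG2S3 library, with adjusted p of 0.0779 and 0.0842. IGROV-1/CDDP was also lower, at 46.4 CPM against 71.7 CPM, and U10 and UWB1.289 had 34.2 and 34.4 CPM, a ratio of 0.994 (0.862 to 1.15).

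SMAD3 (chromosome 15, 67356101 to 67487511, plus strand), the receptor-activated transducer, was the most abundant of the 3 SMAD members per kilobase in 15 of the 17 cell lines. It was at 168 and 173 CPM in HCC4006ER and at 336 and 309 CPM in HCC4006P1, without overlap, and fell by 1.02 on the log2 scale (SE 0.11, edgeR adjusted p = 5.59e-04). In HepG2S3 it was at 55.5 and 49.9 CPM against 96.5 and 136 CPM in HepG2, and fell by 1.45 (SE 0.20, edgeR adjusted p = 0.00210). SMAD3 and TGFBR2 thus fell in both tested pairs. HCC4006GR went the other way, with 463 CPM against 192 CPM in HCC4006P2, a ratio of 2.41 (2.30 to 2.52). PancB1V also had more, 300 CPM against 183 CPM, while PancB1Q had 182 CPM. IGROV-1 had the highest level of all cell lines, 555 CPM, and IGROV-1/CDDP 279 CPM.

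SMAD4 (chromosome 18, 48554898 to 48611415, plus strand), the partner shared by all receptor-activated SMADs, varied little outside the liver and pancreas. In the lung and ovarian cell lines it lay between 48.0 and 71.0 CPM. HepG2 had 70.2 and 72.8 CPM, HepG2S1 159 CPM and HepG2S3 173 and 177 CPM, a rise of 0.98 in HepG2S3 (SE 0.12, edgeR adjusted p = 0.00142). In these 2 derivatives SMAD4, rather than SMAD3, was the most abundant of the 3 SMAD members per kilobase. PancVB, PancB1Q and PancB1V had 15.5, 16.0 and 20.3 CPM, the 3 lowest levels. The SMAD7 levels there, 7.41, 4.31 and 3.87 CPM, were the lowest of all cell lines apart from IGROV-1/CDDP. A link between the levels of SMAD4 and SMAD7 was not tested.

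SMAD7 (chromosome 18, 46446223 to 46477335, minus strand), the inhibitory member, had 35.5 and 32.0 CPM in HCC4006ER against 13.0 and 15.6 CPM in HCC4006P1. It rose by 1.12 (SE 0.17, edgeR adjusted p = 0.00215), and all libraries of HCC4006ER were above those of HCC4006P1. HCC827GR had 38.7 CPM against 16.3 CPM in HCC827P, a ratio of 2.38 (2.07 to 2.74), and HCC4006GR 32.4 CPM against 20.8 CPM, a ratio of 1.56 (1.34 to 1.80). The lung pairs had more SMAD7 mRNA in all 3 resistant cell lines. Lower levels were found in IGROV-1/CDDP, with 5.50 CPM against 13.6 CPM, and in both pancreatic derivatives. In HepG2S3, with 40.7 and 47.2 CPM against 28.4 and 41.5 CPM, the estimate was 0.02 (SE 0.22, edgeR adjusted p = 0.948), and the spread between the HepG2 libraries covered the difference. U10 and U100 had 17.6 and 21.2 CPM against 19.1 CPM in UWB1.289, with ratios of 0.924 (0.759 to 1.12) and 1.11 (0.931 to 1.32), so no difference was detectable at this depth.

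**Figure D3:**
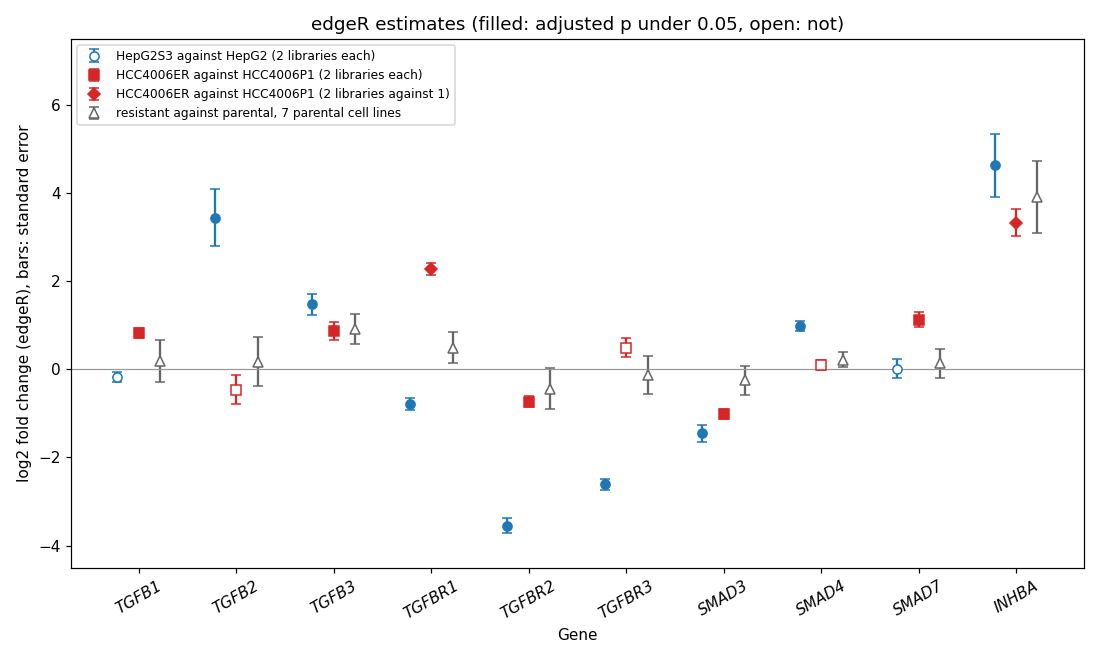
edgeR estimates of the log2 fold change with their standard errors for the 10 genes, in HepG2S3 against HepG2 (blue circles), HCC4006ER against HCC4006P1 (red squares, and red diamonds for the 2 genes with 1 parental library) and over 7 parental cell lines (grey triangles), filled where the adjusted p was under 0.05. TGFBR2 and TGFBR3 lie at -3.55 and -2.61 in HepG2S3, and INHBA at 4.63, 3.33 and 3.91, where INHBA and TGFB2 in HepG2S3 entered the test through the group where they were high.

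Whether the change in HCC4006ER differed from that in HepG2S3 was tested for the 8 genes measured in all 8 libraries, and 6 were called, 4 higher and 2 lower, where 54.0% of all genes were called, 26.7% higher and 27.2% lower. The change in HCC4006ER was higher for TGFBR3, by 3.08 (SE 0.24, edgeR adjusted p = 1.09e-05), and for TGFBR2, by 2.79 (SE 0.20, edgeR adjusted p = 6.01e-06). It was also higher for SMAD7, by 1.08 (SE 0.30, edgeR adjusted p = 0.0141), and for TGFB1, by 0.97 (SE 0.18, edgeR adjusted p = 0.00175). The SMAD7 call was lost without replicate 1 of HCC4006ER, of HCC4006P1 or of HepG2S3, with adjusted p of 0.0577, 0.0572 and 0.0648. The change in HCC4006ER was lower for TGFB2, at -3.92 (SE 0.72, edgeR adjusted p = 0.00179), and for SMAD4, at -0.91 (SE 0.17, edgeR adjusted p = 0.00195). The TGFB2 difference rests on 3 and 17 counts in HepG2 and on HCC4006P1 libraries that disagreed. Its size is therefore uncertain, and it gives no direction for TGFB2 in HCC4006ER. SMAD3 and TGFB3 did not pass, at 0.40 (SE 0.24, edgeR adjusted p = 0.188) and -0.64 (SE 0.30, edgeR adjusted p = 0.102).

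The other genes of the pathway were read from lists by role, with some genes in 2 lists, and tested values are edgeR estimates with an adjusted p under 0.05 unless a pair without a test is named. Of 69 such genes that passed the low-count filter in HepG2S3 and 64 in HCC4006ER, 12 and 8 reached it in both libraries of 1 group only. Among them were BMP2, BMPR1B, INHBB and DCN in the HepG2S3 test, and ACVR1C, BAMBI, ITGB6 and DCN in the HCC4006ER test. Their calls entered through the group where they were high. Of 11 other receptors and co-receptors, 10 were tested in HepG2S3, where 2 rose and 7 fell (31.4% and 32.1% of all genes), with a median change of -1.78 (-0.01 over all genes tested). The 2 were BMPR1B and the co-receptor ENG (endoglin), and among the 7 were the activin type II receptors ACVR2A, at -3.40, and ACVR2B, at -2.54. In HCC4006ER 4 of 9 rose and 0 fell (23.2% and 24.2% of all genes), with a median of 0.46 (0.01 over all genes). ACVR1C and BAMBI, among the 4, passed the filter through HCC4006ER alone. BAMBI, a decoy receptor without kinase activity, was at 5.43 there and at -2.88 in HepG2S3. ENG was higher by 3.29 and 3.63 in PancB1Q and PancB1V and by 3.69 and 3.44 in HepG2S1 and HepG2S3, and lay between -0.40 and 1.51 in the other pairs. The -0.40 is that of HCC4006ER, where ENG has 1 parental library, as it lies in the stretch without counts.

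Among 13 other ligands, 9 were tested in HepG2S3, where 2 rose and 5 fell (median -2.76), and 7 in HCC4006ER, where 4 rose and 2 fell (median 0.55). Of all genes tested, 31.4% rose and 32.1% fell in HepG2S3, and 23.2% and 24.2% in HCC4006ER. BMP2 and BMP4, both ligands of the BMP branch, had estimates of 8.50 and -6.27 in HepG2S3. BMP2, with 4 and 9 counts in HepG2, entered that test through the HepG2S3 libraries. Its estimate is therefore given as a value only. INHBB, another activin subunit, had 563 and 1559 counts in HepG2, 0 in HepG2S1 and 1 in each HepG2S3 library. INHBA had 2 and 0 counts in HepG2 and 27 and 33 in HepG2S3. Each entered the HepG2S3 test through the group where it was high, so their calls are not set against each other. In HCC4006ER INHBB fell by 2.48, and INHBA, with 1 parental library, rose as given above. In the pancreatic pairs INHBB was higher together with INHBA, by 1.45 and 1.28.

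Of 6 extracellular inhibitors, which bind ligands outside the cell, 5 rose and 0 fell in HCC4006ER (median 1.79), beside 23.2% and 24.2% of all genes. GREM1, an antagonist of BMPs, had 238 and 436 counts in HCC4006P1 and 39746 and 34260 in HCC4006ER, a rise of 6.73. DCN (decorin), which binds TGF-beta, had 0 counts in both HCC4006P1 libraries and 303 and 196 in HCC4006ER. It entered the test through the HCC4006ER libraries, and CHRD, also among the 5, reached the filter in 1 HCC4006P1 library. In HepG2S3 3 of 6 rose and 2 fell (median 0.77), beside 31.4% and 32.1% of all genes. DCN had 1 and 0 counts in HepG2 and 9312 and 12208 in HepG2S3, and entered that test through the HepG2S3 libraries. FST (follistatin), which binds activin, fell in HepG2S3, with 10 and 5 counts against 1121 and 715, and rose by 0.87 in HCC4006ER. DCN and GREM1 are also fibroblast products, and of the 5 fibroblast genes LUM was higher in HepG2S1 and HepG2S3 (135 and 36.5 CPM, against 0.0280 CPM in HepG2), while COL1A2 was at most 0.102 CPM and COL3A1 at most 0.138 CPM in all 3, and PDGFRB was at 8.09 CPM in HepG2 and 2.03 and 6.88 CPM in the derivatives. The part of such cells in these values was not tested.

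Of 12 genes of latency and activation, 4 rose and 5 fell of 10 tested in HepG2S3, beside 31.4% and 32.1% of all genes. In HCC4006ER 4 rose and 7 fell of 12, beside 23.2% and 24.2%. ITGB6 and ITGB8 encode integrin subunits that release latent TGF-beta. ITGB6 had 1683 and 577 counts in HCC4006P1 and 10 and 9 in HCC4006ER, where it fell by 6.81. It was also lower in HCC827GR, by 4.00, where ITGB8 was higher by 4.38. LTBP1 and LTBP3, which tether the latent complex to matrix, changed in opposite directions in HepG2S3, at 2.47 and -3.19.

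Of the 5 other SMADs, SMAD2 rose in HepG2S3 with SMAD6, and SMAD5 and SMAD9 fell, while in HCC4006ER SMAD9 was the 1 that rose, by 2.18. Of 13 intracellular regulators, 3 rose and 7 fell in HepG2S3, and 3 rose and 5 fell of 12 in HCC4006ER. Of all genes tested, 31.4% rose and 32.1% fell in HepG2S3, and 23.2% and 24.2% in HCC4006ER. PMEPA1, a target gene that restrains SMAD signalling, fell in HCC4006ER by 3.02 and rose in HepG2S3 by 3.04. Of 20 target genes, 7 rose and 8 fell in HepG2S3 (median -0.66), and 6 rose and 10 fell of 17 in HCC4006ER (median -0.69). These counts stand beside the same shares of all genes. LOX, a collagen cross-linking enzyme, rose in both, by 4.58 and 2.25, while CCN2, a matrix-associated growth regulator, fell by 6.99 in HepG2S3 and fell by 0.69 in HCC4006ER. In the pairs without a test, target genes with a change of at least 1 in size are given beside the shares of all genes, higher and lower. In HCC4006GR 11 of 19 were higher and 1 was lower (median 1.12), beside 7.67% and 7.48%. The counts were 7 higher and 4 lower of 20 in HCC827GR (median 0.80), beside 10.5% and 7.79%. They were 7 and 3 of 20 in U10 (0.67), beside 6.36% and 5.01%, and 6 and 2 of 20 in U100 (0.62), beside 6.37% and 1.76%. HepG2S1 had 7 and 6 of 20 (-0.25), beside 25.8% and 18.3%. PancB1Q had 3 and 5 of 18 (-0.20), beside 6.14% and 9.41%, and PancB1V 3 and 4 of 18 (-0.01), beside 8.72% and 7.24%. IGROV-1/CDDP had 5 and 3 of 15 (-0.16), beside 5.50% and 7.19%. Over the 7 parental cell lines edgeR called 0 of these list genes, as it called 0 of all genes. An unadjusted p under 0.05 was found for 920 of all 19829 genes. In the lists it was found for 2 of 6 inhibitors, 2 of 20 target genes, 1 of 11 receptors and 1 of 12 genes of latency. The other ligands, other SMADs and intracellular regulators had 0. DCN, 1 of these inhibitors, had at most 1 count in each library outside HepG2S1, HepG2S3 and HCC4006ER. ID1, 1 of these target genes, was lower.

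**Figure D4:**
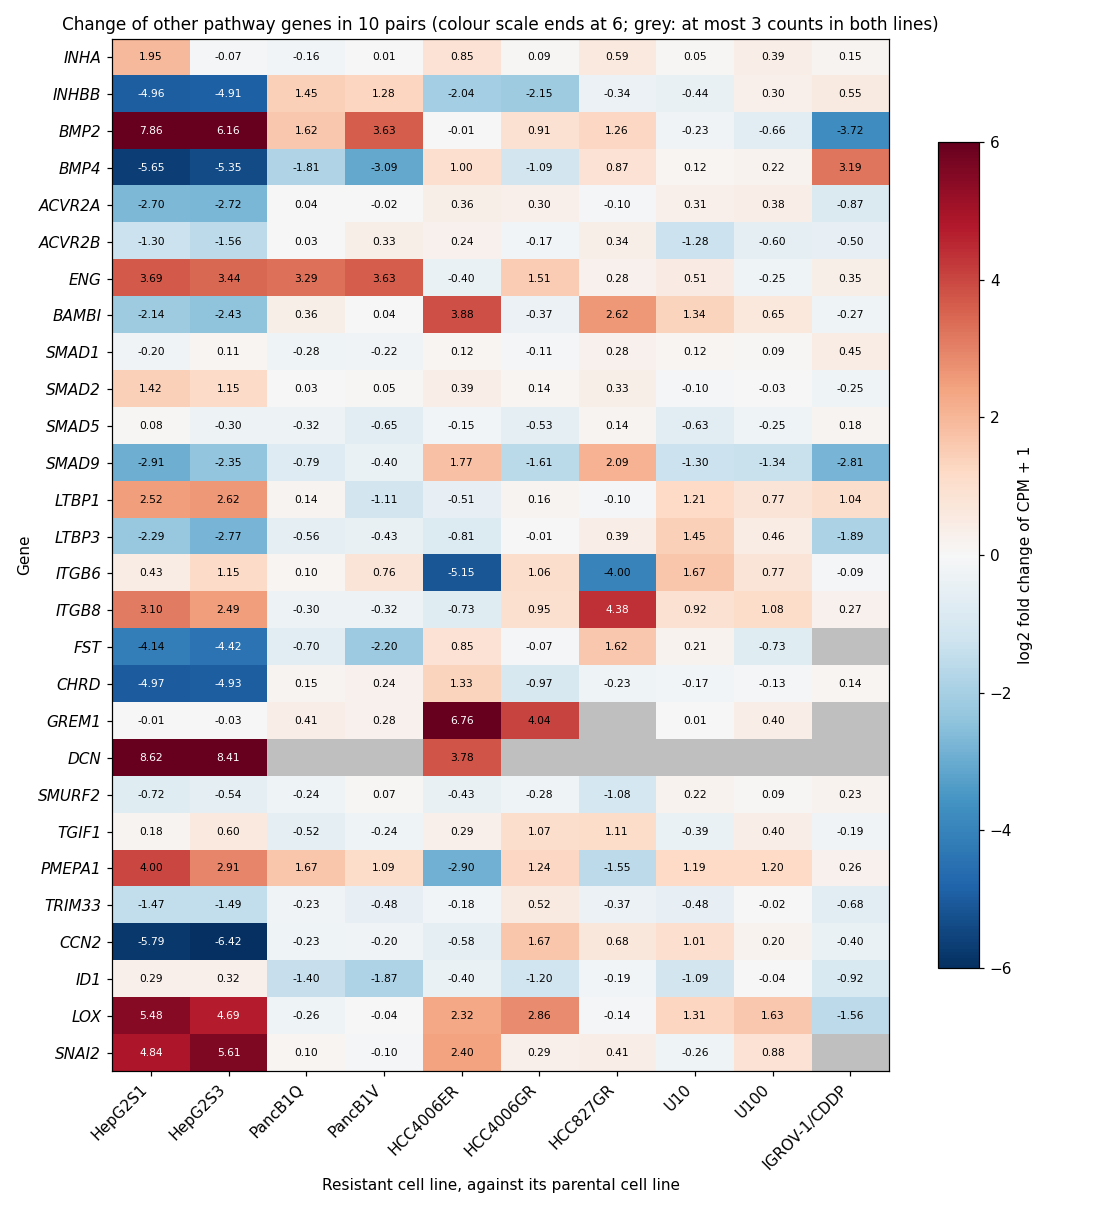
Heat map of the log2 fold change of CPM + 1, resistant minus parental, for other genes of the pathway named by rule (rows) in the 10 pairs (columns), with grey where both cell lines had at most 3 counts in each library. BMP2 and BMP4 have opposite signs in HepG2S3 (6.16 and -5.35), and PMEPA1 is lower in HCC4006ER (-2.90) and higher in HCC4006GR (1.24).

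Across the 17 cell lines, levels of the members spanned a wide range. TGFB1 ran 283-fold from IGROV-1/CDDP to HCC4006ER, TGFBR3 178-fold from HCC827P to HepG2, and TGFBR1 7.49-fold from HCC4006P1 to HCC827GR. The largest ratio between replicate libraries was 1.08 for TGFB1, 1.19 for TGFBR1, 1.51 for TGFBR3 and 2.34 for TGFB2. With cell lines ordered by level, 7 of the 16 neighbouring pairs lay within that ratio for TGFB1, 10 for TGFBR3, 11 for TGFBR1, 5 for INHBA, 9 for SMAD4, 10 for TGFB3, 12 for TGFBR2, 14 for SMAD3, 14 for SMAD7 and 15 for TGFB2, so for most members most neighbours in the order did not differ beyond the spread of replicate libraries. On log2(CPM + 1), SMAD4 and SMAD7 had a Pearson r of 0.80, TGFB2 and TGFBR3 of -0.75 and TGFBR2 and SMAD4 of -0.75, the 3 strongest of all pairs of members. These are descriptions over 17 cell lines from 7 families that share parental cells, where HCC4006P1 and HCC4006P2 also share a cell line identifier. Among 11924 genes, those most like INHBA in level were POU2F2 (r = 0.94) and TNF (r = 0.91), and those most like TGFB2 were PLAUR (r = 0.93) and DPYSL3 (r = 0.91). For SMAD7 they were GALNS (r = 0.93) and EPDR1 (r = 0.91), and for TGFBR2 CACNA2D4 (r = 0.92) and COCH (r = 0.88). Per kilobase, INHBA was the most abundant of the 4 ligand genes in PancB1V, U10 and U100, at 72.3, 46.0 and 42.9 CPM per kb, and in none of the parental cell lines.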

How the data were processed

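The authors deposited raw HTSeq counts per Ensembl gene for each library, without normalization. Per the labels, polyA RNA was made into libraries with a stranded kit, and the submitters' processing notes name Bowtie, TopHat, SAMtools, HTSeq and hg19. Versions and the strand setting are not given in the sources used here. Symbols and positions came from a GENCODE annotation of GRCh37, which matched 45100 of 53515 identifiers (84.3%).

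Each count was divided by the library's gene total to give CPM. For replicate 1 of HCC4006P1, genes of the stretch without counts were set to missing, and its total was divided by the share that the remaining genes held in replicate 2 (81.7%). Replicate numbers came from the letters of the cell line labels, while the titles give both HepG2 libraries 1 replicate number and both HepG2S3 libraries another, so whether and how these pair is unsure. Tests used edgeR 4.0.16 with filterByExpr in R 4.3.3, and DESeq2 1.42.0 as an alternative, and were tested on simulated data. Over 7 parental cell lines, counts were summed per parental cell line, and HCC4006P1 entered as replicate 2. Standard errors are the log2 fold change divided by the square root of F.

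The members and gene lists were chosen with earlier results of these data known. Named besides the members are, per list, the 2 genes with the highest and the 2 with the lowest mean change over the parental cell lines at a mean of at least 1 CPM, and for TGFB2, TGFBR2, SMAD7 and INHBA the 2 genes most like them at a mean of at least 5 CPM. ACVR1C, BMPR1B, SMAD6 and LUM were named after their values were seen. Floors of 3 counts and intervals cover counting error only.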

Additional observations from a re-analysis of the deposited data

Results flagged for a closer look

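In the HepG2 family, the change of TGFBR2 stood apart from the other 6 parental cell lines, at -3.46 on the log2 scale against -0.62 to 0.66. The change of TGFBR3 stood apart in the same family, at -2.94 against -0.86 to 0.64. PancVB stood apart among the parental cell lines in its SMAD4 level, 4.04 as log2(CPM + 1) against 5.62 to 6.18. The rule compares the gap to the nearest value with the whole range, 20 sets of values were examined, and chance flags about 1 set in 20.

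The change in HCC4006ER differed from that in HepG2S3 in a test of the difference itself for 6 genes: TGFB1 by 0.97, TGFB2 by -3.92, TGFBR2 by 2.79, TGFBR3 by 3.08, SMAD4 by -0.91 and SMAD7 by 1.08 on the log2 scale (edgeR, adjusted p given above). The TGFB2 and SMAD7 differences carry the limits given above.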

How the results depend on the processing

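Depth limits INHBA in the liver and IGROV-1 cell lines and TGFB3 in UWB1.289 and its derivatives, which had few counts or none. CPM of library totals move the median of all genes by 0.23 in HepG2S1, 0.28 in HepG2S3, -0.10 in PancB1Q and 0.11 in HCC4006ER, so small changes there depend on scaling. TMM scaling turned the direction of TGFB1 in HepG2S1 and HepG2S3, TGFBR1 in HepG2S1, TGFBR2 in U100, and TGFBR3 and SMAD3 in PancB1Q. The cause was not tested for the values below unless named.

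In HepG2S3, TGFB1 was 0.14 with library totals only, and SMAD7 ran from -0.23 to 0.30 with each library left out in turn, below 0 without HepG2 replicate 1 or HepG2S3 replicate 2. In HCC4006ER, TGFB2 ran from -0.93 without HCC4006P1 replicate 2 to 0.21 without replicate 1, and 3417 genes were called with the files as deposited, against 6493, where the missing genes enter as 0 in 1 library. There INHBA at 4.36 and TGFBR1 at 3.29 were not called, so 0 of the 2. Leaving out each library in turn, HCC4006ER had 3 to 6 of the 8 members called and 4139 to 8736 genes. Its members with a change of at least 1 were 1 without HCC4006P1 replicate 2, which alone holds INHBA and TGFBR1, and otherwise 3.

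Over 7 parental cell lines, DESeq2 called 1 member and 97 genes. With HCC4006P1 and HCC4006P2 taken as 1 cell line, edgeR called 0 of 20071 genes. Leaving out each parental cell line in turn gave -0.082 to 0.57 for TGFB1 (sign turned without HCC827P), -0.24 to 0.47 for TGFB2 (without HepG2 or UWB1.289), -0.30 to 0.25 for TGFBR3 (without HepG2 or IGROV-1) and -0.053 to 0.36 for SMAD7 (without HCC4006P1 or HCC827P). INHBA stayed between 3.29 and 4.51 in these fits, with edgeR adjusted p between 0.552 and 0.999.

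At a change of at least 0.5, 8 of 10 members were counted in HCC4006ER (48.6% of all genes) and 8 of 10 in HCC4006GR (36.5%), 7 of 9 in IGROV-1/CDDP (36.4%), 6 of 10 in PancB1V (42.5%), 5 of 10 in HCC827GR (44.8%), 4 of 10 in PancB1Q (44.0%), 2 of 9 in U100 (28.5%), 6 of 9 in HepG2S1 (68.2%) and in HepG2S3 (68.1%), and 4 of 10 in U10 (35.7%).

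With the replicate number as a block, which for HepG2S3 rests on the letters of the labels, 8 members and 10561 genes were called in HepG2S3 and 7 members and 8098 genes in HCC4006ER, where TGFB2 (-0.37, edgeR adjusted p = 0.0223) and TGFBR3 (0.51, edgeR adjusted p = 0.0171) were added. The deviations of libraries with the same number had a correlation of 0.0466 in the HepG2 family and 0.385 in the HCC4006 family, with 2 pairs each, and no label says that a number marks a shared culture.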
